A study of Mus musculus with 16 samples.

Results

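Transcripts of 4 enzymes of glycogen breakdown and glycolysis were compared between kidney and liver of the mouse. The genes were Pygl (liver glycogen phosphorylase), Pgk1 (phosphoglycerate kinase 1), Pklr (pyruvate kinase of liver and red blood cells) and Ldhb (lactate dehydrogenase B). They were taken as every probe whose annotation gave 1 of these symbols and no other, which was 1 probe for each gene, so 4 of 20419 probes and 4 of 9669 named genes. The 4 had been proposed with results of these data known, so that they passed the test is a description and not evidence about the pathway.

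The study hybridised cDNA from kidney and liver of 3 male animals, wildtype C3HeB/FeJ mice of an inbred strain, to cDNA arrays with 2 colours. All animals were 105 ± 5 days old and bred free of specified pathogens, with no treatment or engineered allele named. The kidney group held 7 arrays, on which RNA of the left kidney of mouse 1, 2 or 3 (3, 3 and 1 arrays) met a pool from 5 livers. The liver group held 9 arrays, on which RNA from the dorsal liver lobe of the same mice (3 arrays each) met a pool from 5 kidneys. Whether the 3 mice also gave RNA to the pools is not stated. Each value is therefore a ratio of organs within an array, and neither organ has a level of its own.

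Glycogen phosphorylase releases glucose 1-phosphate from stored glycogen, and the liver uses this to supply glucose to the blood. Phosphoglycerate kinase and pyruvate kinase are the steps of lower glycolysis that make ATP. The first runs in both directions and also serves gluconeogenesis, whereas the second runs toward pyruvate only, and lactate dehydrogenase interconverts pyruvate and lactate. Liver and kidney are the main organs of gluconeogenesis, and the proximal tubule takes up lactate as fuel and substrate.

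All 4 genes matched RefSeq on GRCm38.p6. Pygl lies at chr12:70190815-70227683 on the minus strand, Pgk1 at chrX:106187100-106203699 on the plus strand, Pklr at chr3:89136122-89146815 on the plus strand and Ldhb at chr6:142490249-142507957 on the minus strand. The probes are cDNA clones placed by symbol only, so the exons they cover and their cross-reaction with paralogs or processed copies are not known here. As background, Pklr has an upstream start used in red blood cells and a downstream start used in liver, and 1 probe cannot tell their transcripts apart. The promoter table lists 2 windows for the gene, taken for these starts by their order only, and the end of the upstream window lies past the first base of the gene record. The 250 bases before both listed starts are shown for that reason, together with those of the member with the largest difference (Pygl) and of the member that differed the other way (Pgk1), each 5′ to 3′ on its own strand. Capitals mark matches on either strand to the TATA box TATAAA, the CCAAT box, the GC box GGGCGG, the core ACGTG of hypoxia elements and the E-box CACGTG. They also mark a spaced E-box repeat, searched as CACGNG followed after 5 bases by CNCGTG, and an inverted repeat, searched as GTTA followed after 4 bases by TTAAC. The hypoxia core lies inside the E-box and could be counted for both, but no window shown holds an E-box of that spelling.
Pklr, upstream start, chr3:89135892-89136141: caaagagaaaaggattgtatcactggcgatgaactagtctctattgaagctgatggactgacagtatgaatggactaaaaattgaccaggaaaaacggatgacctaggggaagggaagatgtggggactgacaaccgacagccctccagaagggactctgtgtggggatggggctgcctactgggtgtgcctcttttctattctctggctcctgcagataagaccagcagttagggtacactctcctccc
Pklr, downstream start, chr3:89136373-89136622: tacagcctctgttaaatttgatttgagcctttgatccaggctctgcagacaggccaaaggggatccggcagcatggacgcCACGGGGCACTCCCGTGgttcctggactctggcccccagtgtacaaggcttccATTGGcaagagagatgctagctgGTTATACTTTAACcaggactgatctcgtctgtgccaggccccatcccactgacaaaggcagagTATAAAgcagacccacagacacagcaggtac
Pygl, chr12:70227684-70227933: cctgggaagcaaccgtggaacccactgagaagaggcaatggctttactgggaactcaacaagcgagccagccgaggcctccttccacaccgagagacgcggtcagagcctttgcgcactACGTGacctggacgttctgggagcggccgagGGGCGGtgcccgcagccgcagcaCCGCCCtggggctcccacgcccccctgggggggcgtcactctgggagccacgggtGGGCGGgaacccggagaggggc
Pgk1, chrX:106186850-106187099: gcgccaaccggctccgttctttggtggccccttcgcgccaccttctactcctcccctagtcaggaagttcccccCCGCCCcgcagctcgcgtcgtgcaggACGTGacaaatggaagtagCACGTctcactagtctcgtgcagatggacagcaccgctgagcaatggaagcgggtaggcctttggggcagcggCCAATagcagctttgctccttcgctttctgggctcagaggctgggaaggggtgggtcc

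The windows differed in these letters. The downstream Pklr window held the spaced repeat 170 bases, the inverted repeat 94 bases and the TATA box 31 bases before the start, and the CCAAT box on the other strand 117 bases before it. As background, the liver-type pyruvate kinase promoter is a textbook case of control by glucose through a paired E-box element and by HNF1, whose sites have the form of this inverted repeat. Of 32851 RefSeq windows of that length, 0.0396% held the spaced repeat, 0.17% the inverted repeat and 12.4% the TATA box. The upstream Pklr window held none of the 7 motifs. The Pygl window had the GC box 100, 77 and 22 bases before the start and the hypoxia core 131 bases before it, and 69.2% of its bases were G or C. The Pgk1 window had the GC box 176 bases, the hypoxia core 150 and 131 bases and the CCAAT box 58 bases before the start, with 62.8% G or C. For Ldhb, a CCAAT box 53 bases before the start was the single match and 56.4% of bases were G or C. Among all windows 32.7% held the GC box, 33.8% the CCAAT box, 16.6% the hypoxia core and 6.02% the E-box, and the median share of G and C was 52.4%. A match describes letters and is not a site, and expression was not measured from single starts.

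Values are given as log2 of kidney over liver, so a negative value means more transcript in liver. The labels name the single sample first, but the deposited ratios ran the other way, as pool over single sample. This was read from Alb (serum albumin), with deposited means of 8.44 on kidney arrays and -7.57 on liver arrays, and from Kap (a proximal tubule protein), with -5.77 and 6.08. All kidney and liver words below rest on this reading. Between 15480 and 19432 probes had a value on an array. On the 10 arrays of mice 1 and 3 the median over all probes lay between -0.00267 and -0.00057, whereas on the 6 arrays of mouse 2 it lay between -1.49 and -1.19 as kidney over liver. Those arrays stand apart and do not have the median ratio of 1 that the labels state. The estimates of the 4 genes, their paralogs and the named pathway genes are given with and without mouse 2. Values after each array was centred on its median are added where these end a call or differ by over 1.5 times. Hybridisations of 1 mouse and organ were averaged and limma was fitted to the 6 averages of all 9047 genes measured in at least 2 mice per organ, with Benjamini-Hochberg adjustment and a threshold of 0.05. Both organs of a mouse enter this fit as if they came from separate animals. In the fit with the mouse as a replicate block, limma shrank all variances to 1 value and gave each gene with 6 averages the same SE of 0.45. P-values of that fit therefore do not measure the spread of single genes. Adjusted p-values from both fits are given for the 4 genes.

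Of the 4 genes, 3 were higher in liver (Pygl, Pklr and Ldhb) and 1 was higher in kidney (Pgk1). Among all genes tested, 1283 of 9047 (14.2%) passed the threshold, 788 (8.71%) higher in liver and 495 (5.47%) higher in kidney, and after each array was centred 1124 were higher in liver and 1749 in kidney. The count of 1283 was 467 without mouse 1, 2713 without mouse 2, 530 without mouse 3, 774 without the liver of mouse 1 and 753 without the liver of mouse 3. Under other settings of the analysis, Pygl kept its call in 26 of 26, Pgk1 in 21 of 26, Pklr in 13 of 24 and Ldhb in 13 of 26, and each estimate kept its sign in all of these. Their adjusted p-values ranged from 1.99e-08 to 0.0145 for Pygl, 9.47e-06 to 0.341 for Pgk1, 3.29e-05 to 0.288 for Pklr and 4.96e-05 to 0.424 for Ldhb. The lowest values of Pgk1, Pklr and Ldhb came from the mouse block on kidney over liver, which takes out the differences between mice. That setting, counted above, is not a test across mice, and 7390 of 9047 genes passed it. The lowest value of Pygl came from the liver arrays alone. There limma gave the 4 genes the same SE of 0.44, so that p-value does not measure the spread of Pygl. Over all genes the threshold was passed by 31.8% after each array was centred, 20.3% with mouse 2 shifted, 35.8% without mouse 2, 7.59% with the replicate block and 7.51% with the block over genes with 6 averages.

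Pygl, which encodes the phosphorylase isozyme of the liver, was 5.77-fold lower in kidney. On kidney arrays it read -1.60, -1.46 and -2.40 for mouse 1, -2.70, -2.30 and -2.51 for mouse 2 and -2.55 for mouse 3. On liver arrays it read -2.27, -2.46 and -2.06 for mouse 1, -2.71, -2.84 and -2.78 for mouse 2 and -3.31, -3.08 and -3.39 for mouse 3. All 16 values were below 0, the averages of mouse 1 were nearest to 0 on both kinds of arrays, and the 2 kinds overlapped. The mean was -2.29 ± 0.41 (SD, n = 3 mice) on kidney arrays and -2.77 ± 0.50 (SD, n = 3) on liver arrays. The limma estimate was -2.53 (SE 0.23), with an adjusted p of 0.00013, and 1.06e-06 with the replicate block (0.00117 over genes with 6 averages). The value of 1.06e-06 rests on the variance shared by all genes and does not measure the spread of Pygl. The SD was 0.27 between hybridisations of a mouse and 0.46 between mice, both far smaller than the difference. Without mouse 2 the estimate was -2.47 (adjusted p = 0.000131). Pygl took place 152 by size among the genes called higher in liver.

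Pgk1, the phosphoglycerate kinase of somatic cells, was 2.18-fold higher in kidney. On kidney arrays its values were 0.50, 1.08 and 1.03 for mouse 1, 1.30, 1.11 and 1.42 for mouse 2 and 0.73 for mouse 3. On liver arrays they were 1.33, 1.33 and 1.23 for mouse 1, 1.60, 1.50 and 1.48 for mouse 2 and 1.13, 1.12 and 0.90 for mouse 3. All 16 were above 0, and mouse 2 was highest and mouse 3 lowest in the averages of both kinds of arrays. The mean was 0.96 ± 0.28 (SD, n = 3 mice) on kidney arrays and 1.29 ± 0.24 (SD, n = 3) on liver arrays. The limma estimate of 1.12 (SE 0.21) had an adjusted p of 0.00738, but 0.127 with the replicate block. The block gave 0.117 over genes with 6 averages, where the SE was 0.38, and 0.00416 over bright probes alone, where 1050 of 1756 genes (59.8%) passed. The adjusted p was 0.131 without mouse 1 and 0.107 without mouse 3, with estimates of 1.15 and 1.24. Without mouse 2 the estimate was 0.99 (adjusted p = 0.000656).

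Pklr, which encodes the pyruvate kinase that liver regulates by diet and hormones, was 2.16-fold lower in kidney with a wide spread between mice. On kidney arrays it read -0.42, -0.18 and 0.10 for mouse 1, -2.17, -2.05 and -1.44 for mouse 2 and -1.39 for mouse 3. On liver arrays it read -0.54, -0.74 and -0.31 for mouse 1 and -1.73, -1.79 and -1.76 for mouse 2, and mouse 3 had -1.13 and -0.77 and no value on its other array. Of 15 values 14 were below 0. Before each array was centred, the 3 mice did not overlap within either kind of array, with mouse 1 nearest to 0 and mouse 2 farthest. The mean was -1.15 ± 0.88 (SD, n = 3 mice) on kidney arrays and -1.08 ± 0.63 (SD, n = 3) on liver arrays. The SD between mice, 0.77, was larger than that between hybridisations, 0.26.

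The limma estimate for Pklr was -1.11 (SE 0.29), with an adjusted p of 0.0365, and 0.132 with the replicate block (0.163 over genes with 6 averages). It was -1.50 with an adjusted p of 0.064 without mouse 1, -1.09 and 0.169 without mouse 3, and -0.76 and 0.0286 without mouse 2. With each array centred, the estimate was -0.66 (adjusted p = 0.0222). Leaving out a single average also ended the call, with an adjusted p of 0.0985 without the kidney of mouse 3 and 0.0736, 0.0817 and 0.0977 without the liver of mouse 1, 2 and 3. The Pklr probe was dim. Of its values on the arrays of mice 1 and 3, 66.7% recurred exactly elsewhere on the same array, as ratios of small whole numbers do at low signal. The other 3 probes were bright, with 0.0% for Pygl and Pgk1 and 10% for Ldhb. Since red blood cells also express the gene, erythroid markers are given beside it. Of 12 listed, 3 were tested and 0 were called by limma (1 had an unadjusted p under 0.05), and their mean ranged from -1.74 to -0.17 over the averages of kidney arrays and from -1.65 to -0.36 over those of liver arrays. Their part in the Pklr values was not tested.

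Ldhb, the lactate dehydrogenase subunit of heart type, was 1.85-fold lower in kidney, the smallest difference of the 4. On kidney arrays it read -0.66, -0.71 and -0.72 for mouse 1, -0.40, -0.51 and -0.50 for mouse 2 and -1.08 for mouse 3. On liver arrays it read -1.14, -0.89 and -0.78 for mouse 1, -0.58, -0.47 and -0.56 for mouse 2 and -1.78, -1.34 and -1.66 for mouse 3. All 16 values were below 0, and the 3 mice did not overlap within either kind of array, with mouse 2 nearest to 0 and mouse 3 farthest. The mean was -0.75 ± 0.31 (SD, n = 3 mice) on kidney arrays and -1.02 ± 0.53 (SD, n = 3) on liver arrays. As background, this subunit is known as the prevailing one in heart and kidney, and lactate dehydrogenase A as that of liver and skeletal muscle, so the sign measured here is the opposite of the textbook one. The identity of the clone behind this probe was not checked, so the value is that of the probe annotated as Ldhb.

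The limma estimate for Ldhb was -0.89 (SE 0.23), with an adjusted p of 0.0358. It was 0.262 with the replicate block, 0.257 with it over genes with 6 averages, and 0.018 with the block over bright probes alone. In that last fit 1050 of 1756 genes (59.8%) passed, and brightness was itself read from the ratios. With each array centred on its median, the estimate was -0.43 and the adjusted p 0.353, and the 6 mouse 2 values became positive, between 0.69 and 1.03. Without mouse 2 it was -1.08, with an adjusted p of 0.00165. Leaving out mouse 1 gave 0.203 and mouse 3 gave 0.255. Leaving out a single average gave 0.0874 and 0.115 for the kidney of mouse 1 and 3, and 0.116 and 0.139 for the liver of mouse 1 and 3.

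**Figure D1:**
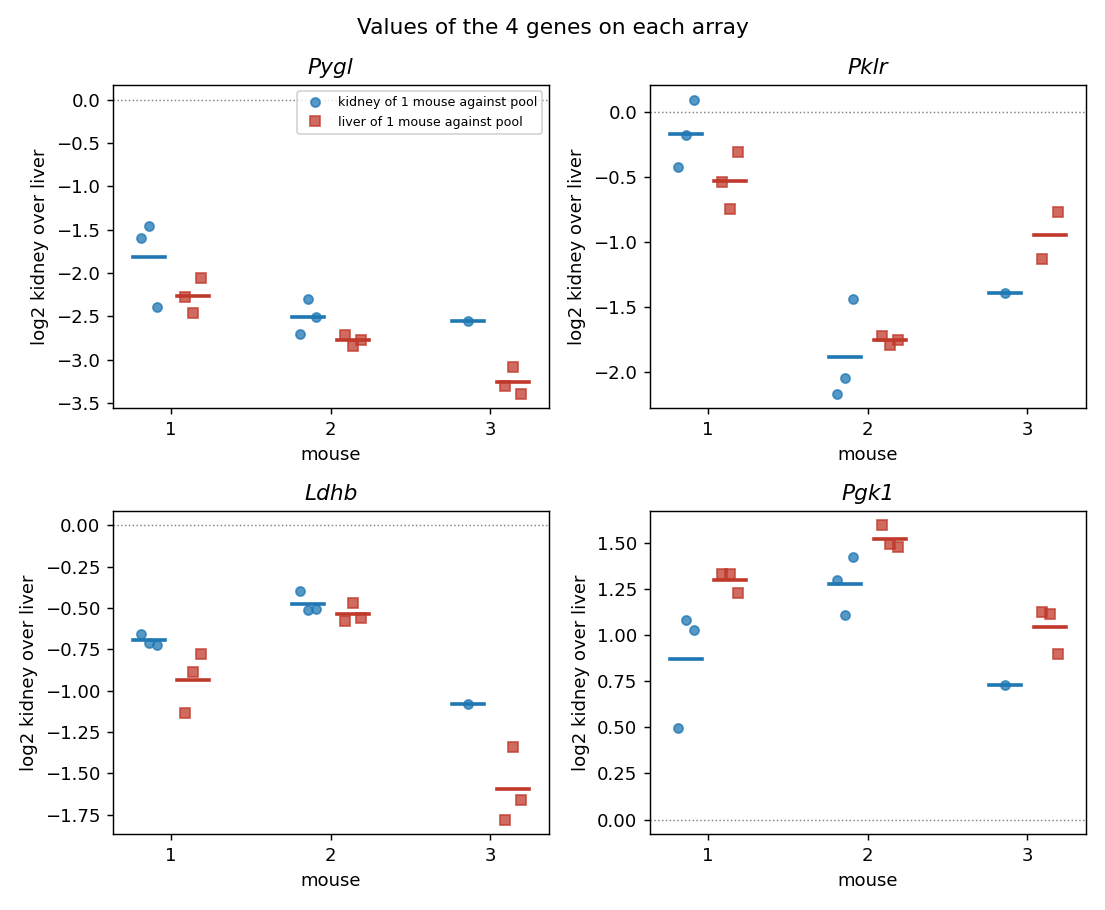
Log2 kidney over liver of Pygl, Pklr, Ldhb and Pgk1 on each array, by mouse. Points are arrays on which the kidney of 1 mouse met the liver pool (circles) or the liver of 1 mouse met the kidney pool (squares), short lines are means of a mouse, and the dotted line is 0. All Pygl and Ldhb values lie below 0 and all Pgk1 values above it, and a single Pklr value, on a kidney array of mouse 1, lies at 0.10.

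The mice did not keep 1 order across the genes. Averaged over both kinds of arrays, Pygl read -2.04, -2.64 and -2.91 in mice 1, 2 and 3, and Pklr read -0.35, -1.82 and -1.17. Ldhb read -0.82, -0.50 and -1.34, and Pgk1 read 1.08, 1.40 and 0.89. Before centring, the largest liver excess was therefore in mouse 3 for Pygl and Ldhb and in mouse 2 for Pklr. With each array centred, Pklr read between -0.74 and -0.25 on the arrays of mouse 2, and -1.39, -1.13 and -0.77 on those of mouse 3. Mouse 3 then had a larger liver excess than mouse 2 for Pklr as well. The kinds of arrays, which exchange the organ that came from a single animal, gave differences (kidney arrays minus liver arrays) of 0.48 (SE 0.46) for Pygl, -0.33 (SE 0.41) for Pgk1, -0.07 (SE 0.58) for Pklr and 0.27 (SE 0.46) for Ldhb. The adjusted p was 1.0 for each. None of 9047 genes (0.0%) passed the threshold for this difference in limma, 17 had an unadjusted p under 0.05, and between 0 and 11 passed under the alternatives. The kidney arrays alone gave adjusted p-values of 0.00746 for Pygl, 0.341 for Pgk1, 0.288 for Pklr and 0.424 for Ldhb. On the liver arrays alone they were 1.99e-08, 0.0431, 0.116 and 0.144. In that fit each of these genes had the same SE of 0.44, so its p-values do not measure the spread of single genes.

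The distance of mouse 2 from the other mice differed with signal. Its difference from mice 1 and 3 was -0.17 for Pygl, 0.41 for Pgk1, 0.57 for Ldhb and -1.06 for Pklr. Over all probes the median of this difference was -0.18 where no value recurred (1739 probes) and -1.52 where over 70% recurred (3323 probes). For probes in the range of Pklr, with over 50% and up to 70% recurring, it was -1.45 (3737 probes, quartiles -1.76 and -1.09), and Pklr at -1.06 lay just above the upper quartile. Pygl lay near the median of its range, whereas Pgk1 lay above the upper quartile of 0.15 and Ldhb above the upper quartile of -0.04 of theirs. With mouse 2 shifted by its offset over bright probes, all 4 genes passed the threshold, and 1837 of 9047 genes (20.3%) did so.

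**Figure D2:**
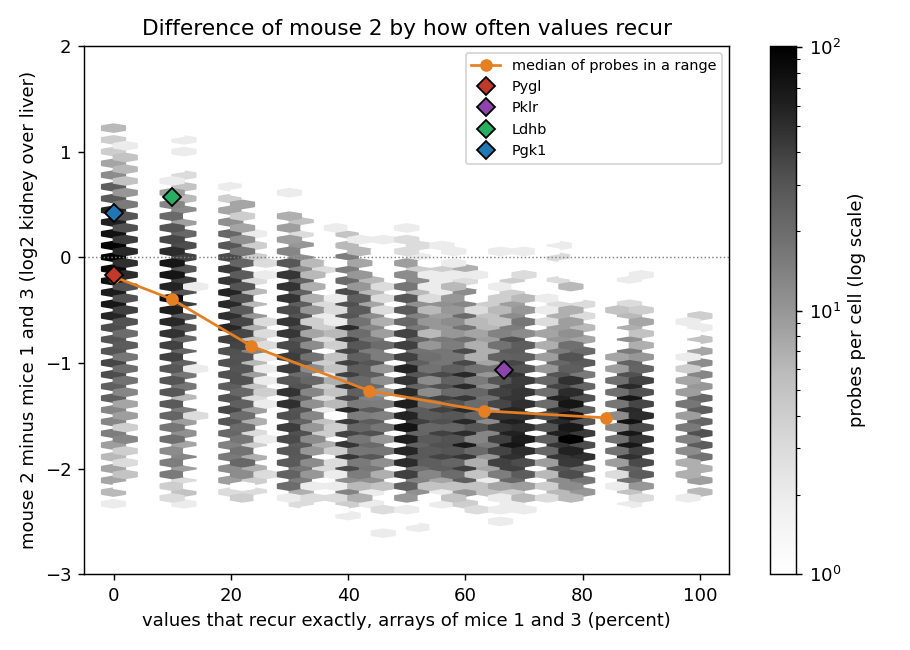
Difference of mouse 2 from mice 1 and 3 (log2 kidney over liver) against the percentage of values on the arrays of mice 1 and 3 that recur exactly. Grey cells count probes on a log scale, the line joins medians of probes in 6 ranges, and diamonds are the 4 genes. The medians run from -0.18 to -1.52, and Ldhb and Pgk1 are the 2 diamonds above 0.

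The paralogs of the 4 enzymes were set beside them. The isozyme differences are between ratios of organs, from which a shift equal for all probes of an array drops out. A shift that differs with signal does not, and the offset of mouse 2 was larger for dim probes. Pygl and Pgk1 had bright probes, whereas those of Pygb and Pgk2 were dim (55.6% and 75% recurring). With 3 mice the exact sign-flip test (two-sided) cannot go below 0.25, and it gave 0.25 for each of the 4 differences.

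Pygb, the brain isozyme of phosphorylase, had an estimate of 0.06 (SE 0.23, adjusted p = 0.854) and a dim probe, and it read 0.23 (adjusted p = 0.221) without mouse 2 and 0.51 (0.0739) after centring. Pygl minus Pygb was -2.48, -2.34 and -2.93 in mice 1, 2 and 3, a mean of -2.58 ± 0.31 (SD, n = 3). Pygm, the muscle isozyme, was lower in kidney at -1.21 (SE 0.28, adjusted p = 0.0211), and 0.0898 with the replicate block. It was -0.86 without mouse 2 and -0.75 after centring, and passed the threshold in both. Both phosphorylases called were thus higher in liver, but 50% of the Pygm values recurred, at the edge of the dim range, against 0.0% for Pygl.

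Ldha, the subunit of muscle type, had an estimate of 0.61 (SE 0.25, adjusted p = 0.126), and its 2 probes read 0.19 and 1.03. It was 0.33 (adjusted p = 0.11) without mouse 2 and 1.06 (0.0646) after centring, and its mouse 3 averages were 0.05 and 0.14. Ldhb minus Ldha was -1.38, -1.68 and -1.44 in the 3 mice, a mean of -1.50 ± 0.16 (SD, n = 3), so the 2 subunits kept a similar distance in each animal. Ldhc, the testis form, read -0.87 (SE 0.38, adjusted p = 0.142), with -0.23 (0.306) without mouse 2 and -0.42 (0.0902) after centring. Pkm, the pyruvate kinase of muscle and most other tissues, read -0.85 (SE 0.28, adjusted p = 0.0826) with 87.5% of values recurring, and -0.48 (0.0676) without mouse 2 and -0.40 (0.0767) after centring. Pklr minus Pkm was -0.09, -0.23 and -0.47, a mean of -0.26 ± 0.19 (SD, n = 3). The 2 dim pyruvate kinase probes were farthest apart in mouse 3. There Pklr and Pkm read -0.95 and -0.25 on liver arrays, and -1.39 and -1.16 on the kidney array. Pgk2, the testis isozyme, read 0.13 (SE 0.29, adjusted p = 0.723), and it passed the threshold after centring (0.59, adjusted p = 0.0105) and without mouse 2 (0.56, adjusted p = 0.0168). Pgk1 minus Pgk2 was 0.67, 2.11 and 0.19, a mean of 0.99 ± 1.00 (SD, n = 3).

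The genes most like each of the 4 were taken by the root mean square difference of their log2 values over the arrays. For Pgk1 they were Mdh1 (cytosolic malate dehydrogenase) at 0.22, Idh1 (cytosolic isocitrate dehydrogenase) at 0.24 and Ctsa (a lysosomal protease) at 0.25, over 16 arrays. For Pygl they were Ephx1 (microsomal epoxide hydrolase) at 0.39, Pbp2 at 0.41 and Slc38a5 (an amino acid transporter) at 0.44. For Ldhb they were Med4 (a Mediator subunit), Ndrg2 and Kif16b (a kinesin) at 0.24, 0.26 and 0.27, none of which passed the threshold (adjusted p between 0.0507 and 0.0641). For Pklr, over 15 arrays, they were Mfsd12, Poglut2 and Ube2u at 0.27, 0.27 and 0.28. The measure is a description that favours genes of like size, and these arrays share pools and normalisation.

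Of 112 genes in 8 lists of sugar metabolism, 70 were tested. Calls were 10 in favour of kidney and 10 in favour of liver, with 50 genes that did not pass. The split differed between settings, with 28 and 6 after centring, and 29 and 15 of 66 tested without mouse 2. The median estimate was -0.24 against -0.48 for all genes tested. Leaving out the 4 genes above, 16 of 66 (24.2%) passed, 9 higher in kidney and 7 in liver, against 14.2% of all genes (5.47% higher in kidney and 8.71% in liver). The counts of single lists below are to be read against these shares. Those after centring are to be read against 31.8% of all genes (1749 higher in kidney and 1124 in liver of 9047). Without mouse 2, 35.8% of all genes passed. In bulk organs, fewer cells of a type and less RNA per cell cannot be told apart. Hepatocyte markers were higher in liver for 9 of 10 tested (median -6.79), and the mean of their list lay between -6.66 and -5.76 over kidney arrays and between -6.33 and -5.81 over liver arrays. Proximal tubule markers were higher in kidney for 7 of 7 tested of 10 listed (median 4.92), with list means from 3.78 to 5.23 and from 4.04 to 5.22. Their part in the lists below was not tested.

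Of glycogen metabolism, 15 of 23 genes were tested. None was called higher in kidney by limma, also at an unadjusted p under 0.05 (0 genes), and 4 were higher in liver, with a median of -0.50. Beside Pygl and Pygm these were Stbd1, a protein that binds glycogen and membranes, at -1.47 (SE 0.21, adjusted p = 0.0017), and Ppp1r3c, a subunit that brings protein phosphatase 1 to glycogen, at -1.41 (SE 0.27, adjusted p = 0.00828). Both kept their call with the replicate block, at 0.0199 and 0.0284, and without mouse 2 they were at -1.35 and -1.07. After centring, 4 genes of this list were higher in kidney and 4 higher in liver, in a setting where 31.8% of all genes passed.

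In upper glycolysis, from hexokinase to the triose phosphates, 1 of 9 genes tested of 17 passed. This was Aldoa (aldolase A), 4.31-fold higher in kidney at 2.11 (SE 0.20, adjusted p = 0.000161), with its 2 probes at 2.11 and 2.10. Without mouse 2 it was 2.22. In lower glycolysis, from the triose phosphates to lactate, 12 of 15 genes were tested, and those called were Pgk1 (higher in kidney) and Pklr and Ldhb (higher in liver), with 9 not called and a median of -0.36. With the replicate block limma called 0 of the 12, and 2 had an unadjusted p under 0.05. Called genes thus went both ways within glycolysis.

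Among gluconeogenic genes, 8 of 12 were tested, with a median of 0.00. Mdh1, which turns oxaloacetate and malate into each other in the cytosol, was higher in kidney at 1.25 (SE 0.21, adjusted p = 0.00488, but 0.0729 with the block), and 1.09 without mouse 2. Got2, the mitochondrial aspartate aminotransferase, was higher in liver at -0.91 (SE 0.21, adjusted p = 0.0246), with -0.45 and 0.317 after centring, 0.25 with the block, and -1.09 without mouse 2. Of 6 pyruvate oxidation genes tested of 13, limma called 2 higher in kidney and 0 higher in liver (3 and 0 at an unadjusted p under 0.05), with a median of 0.64. These were Pdha1 and Pdhx, subunits of the pyruvate dehydrogenase complex, at 1.70 (SE 0.21, adjusted p = 0.000834) and 1.37 (SE 0.29, adjusted p = 0.0138). Both kept their call with the block, at 0.0036 and 0.0364, and without mouse 2 they were at 1.72 and 1.73. Of 2 Pdhx probes, only 1 had values enough for the limma fit over probes, at 1.84 (SE 0.37, adjusted p = 0.0137). The Pdhx averages, which take in the other probe where it had a value, ran from 0.62 to 2.35. After centring 6 of 6 genes of this list passed, in a setting where 31.8% of all genes did so and 1749 of 9047 were higher in kidney.

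Galt, which converts galactose 1-phosphate, was the single gene called of 4 tested in fructose, galactose and polyol metabolism. It was higher in liver at -1.07 (SE 0.20, adjusted p = 0.0077), with -0.62 and 0.0986 after centring, 0.155 with the block, and -1.08 without mouse 2. In the pentose phosphate pathway 2 of 6 genes tested of 8 were higher in kidney, Taldo1 (transaldolase) at 0.77 (SE 0.20, adjusted p = 0.0399) and Pgd (6-phosphogluconate dehydrogenase) at 0.76 (SE 0.20, adjusted p = 0.039). In the limma fit over probes, 1 Taldo1 probe passed at 0.99 (adjusted p = 0.0152) and the other did not at 0.55 (0.129). With the block the adjusted p was 0.302 for Taldo1 and 0.308 for Pgd. After centring they read 1.22 and 1.21, and without mouse 2 0.77 and 0.80.

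Of 16 regulators, 10 were tested, 3 higher in kidney and 2 in liver, with a median of -0.13. Gcgr, the glucagon receptor, was 10.7-fold lower in kidney at -3.42 (SE 0.20, adjusted p = 9.34e-06), the farthest from 0 of the 70 genes. Mlxipl, the glucose-responsive factor ChREBP, was higher in liver at -0.99 (SE 0.20, adjusted p = 0.0122), whereas its partner Mlx was higher in kidney at 0.81 (SE 0.20, adjusted p = 0.0268). In the limma fit over probes, 1 Mlxipl probe passed at -1.31 (adjusted p = 0.00599) and the other did not at -0.68 (0.0704). ChREBP is known to act through paired E-boxes of the kind printed for the downstream Pklr start, but its binding was not measured. Hnf4a, a nuclear receptor of hepatocytes and proximal tubule, was higher in kidney at 1.37 (SE 0.21, adjusted p = 0.00255), and so was Hif1a, the hypoxia factor subunit, at 0.98 (SE 0.27, adjusted p = 0.0471). With the block, Gcgr (3.9e-12) and Hnf4a (0.0354) kept their calls and Mlxipl (0.204), Mlx (0.285) and Hif1a (0.21) did not. After centring, Mlxipl was at -0.54 (adjusted p = 0.0757) and no longer called, and Mlx was at 1.26. Without mouse 2, Hif1a was at 0.61 (adjusted p = 0.0132), and its mouse 2 averages were 1.71 and 1.74 against 0.17 to 0.81 in mice 1 and 3. Of its 2 probes, only 1 had values enough for the limma fit over probes, at 1.37 (adjusted p = 0.00486). The other Hif1a probe entered the averages where it had a value, and its part in this contrast between mice was not tested. Gcgr was at -3.29, Hnf4a at 1.36, Mlxipl at -0.89 and Mlx at 0.80 without mouse 2.

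**Figure D3:**
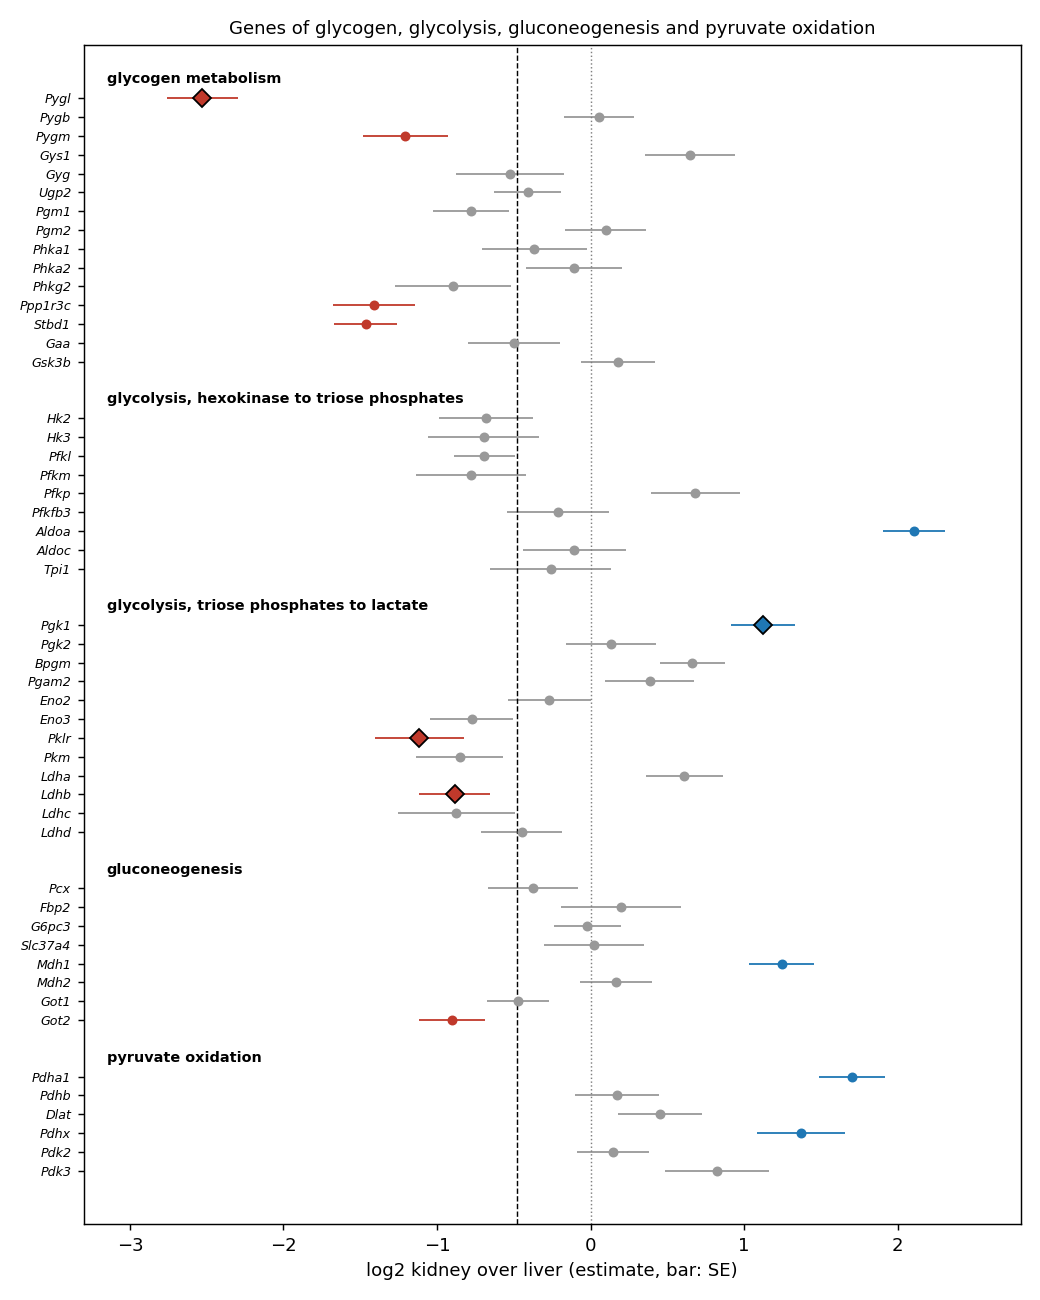
Limma estimates of log2 kidney over liver, with bars of 1 SE, for the genes tested in 5 of the lists. Red marks genes called higher in liver, blue genes called higher in kidney and grey genes not called, diamonds are Pygl, Pgk1, Pklr and Ldhb, and the dashed line is the median of all genes, -0.48. Called genes of glycogen metabolism all lie left of 0, and those of pyruvate oxidation right of it.

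**Figure D4:**
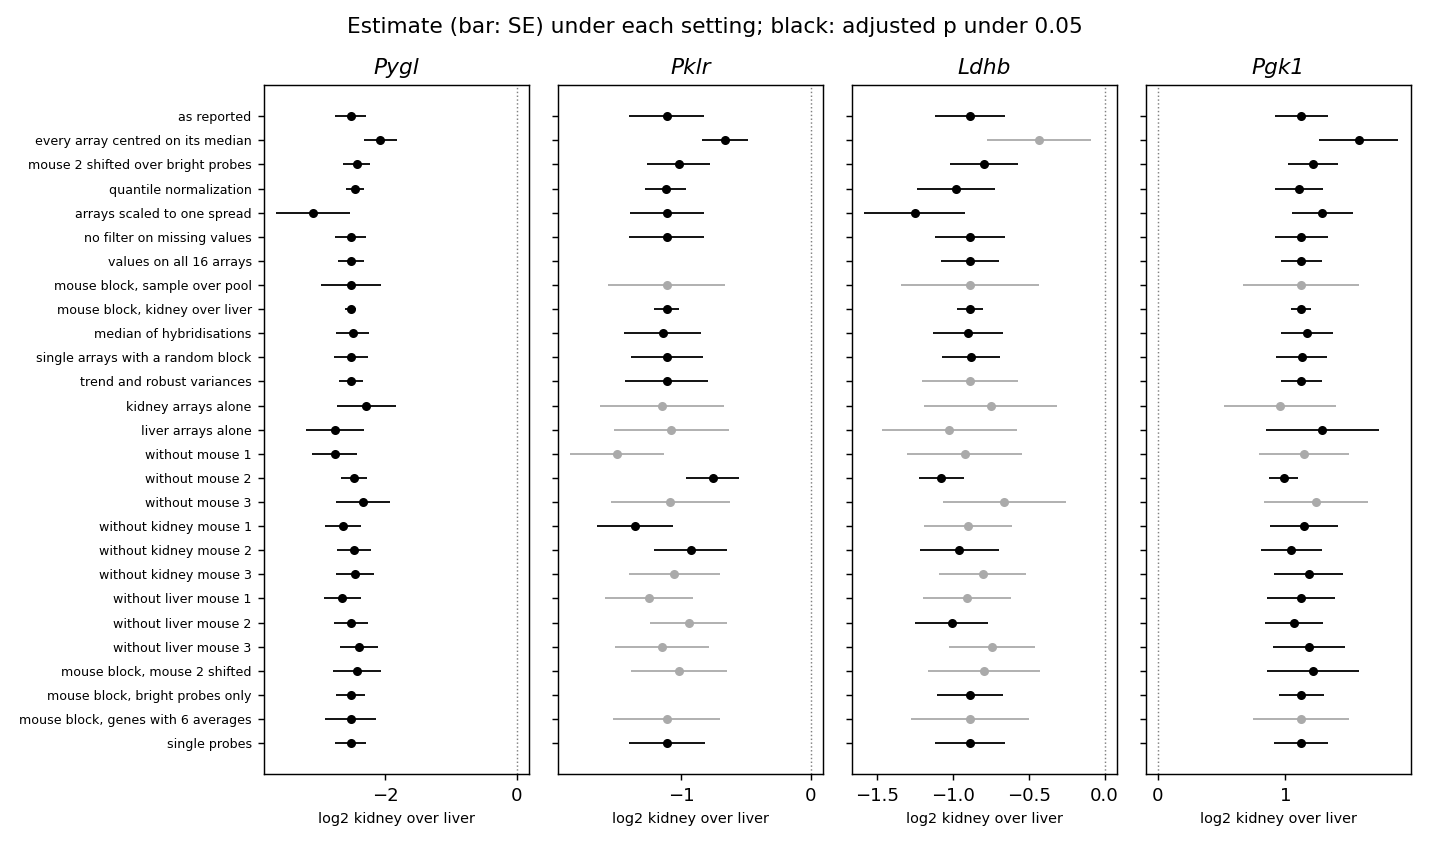
Estimates of the 4 genes with bars of 1 SE under each setting of the analysis, black where the adjusted p was under 0.05 and grey where it was not. All estimates of Pygl (-3.10 to -2.08) are black, and Pklr and Ldhb are black in 13 alternatives each.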

How the data were processed

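The deposited values are log2 ratios per probe and array. Per the labels' protocols, 20 µg of total RNA was labelled with Cy3 or Cy5, slides were scanned with a GenePix 4000A, and GenePix Pro 3.0 gave mean intensities minus background, with ratios scaled to a median of 1. The dye of each sample and the log base are not stated. Base 2 was read from the values: within a tolerance of 1e-04, 140 of 144 spacings between frequent values equalled log2 ratios of integers up to 10, while 0 equalled natural log ratios and 16 log10 ratios.

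The 4 genes, the gene lists and the tests were chosen with earlier results of these data known. Of 20419 probes, 11723 had 1 symbol (11590 matched RefSeq), 806 several and 7890 none, and probes of a gene were averaged. A probe was bright with at most 0.1 of its values recurring on an array and dim with over 0.5, with values on 8 or more of the 10 arrays from mice 1 and 3 (2967 and 7126 probes). Since the share is read from the ratios themselves, a large ratio can count as bright at any intensity.

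Hybridisations were averaged by mouse and organ, and a model in limma 3.58.1 (R 4.3.3) had an organ mean and a term for the kind of array, two-sided, with Benjamini-Hochberg adjustment over all genes. Mouse numbers mark the same animals in both organs, per the labels. Expressed as single sample over pool, deviations of a mouse's organs correlated at -0.591, -0.795 and -0.585 over 14688 probes, so as kidney over liver they went together and p-values without the replicate block tend to be too small. Except with the replicate block and on the liver arrays alone, where the 4 genes shared 1 SE, p-values measure the spread of 3 mice. The pools add none. Genes were named by rule: the 4, their paralogs, up to 4 called genes of each list and direction with the largest estimates, and the 3 most alike. Only the fit to the averages without the replicate block was checked on simulated data, with independent noise. Such data lack the shared deviations of a mouse's organs, so the check cannot show p-values that are too small for that reason. Promoter windows are those of RefSeq on GRCm38.p6. Figures were drawn with matplotlib 3.10.9.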

Additional observations from a re-analysis of the deposited data

How the results depend on the processing

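The direction of Pygl, Pgk1, Pklr and Ldhb was kept under every alternative that gave a value, and the call of Pygl too, with estimates from -3.10 to -2.08. Leaving out a mouse or an average moved Pygl between -2.77 and -2.34, Pgk1 between 0.99 and 1.24, Pklr between -1.50 and -0.76 and Ldhb between -1.08 and -0.66. With the replicate block (mouse number) on single sample over pool, Pklr (-1.11, adjusted p = 0.132), Ldhb (-0.89, 0.262) and Pgk1 (1.12, 0.127) did not pass in limma. The following alternatives, chosen after seeing the data, kept the block: over genes with 6 averages these were at 0.163, 0.257 and 0.117, and with mouse 2 also shifted Pklr was at -1.02 (0.112) and Ldhb at -0.79 (0.226), while Pgk1 passed at 1.22 (0.0413). On kidney arrays alone Pklr was at -1.15 (0.288), Ldhb at -0.75 (0.424) and Pgk1 at 0.96 (0.341), and on liver arrays alone Pklr was at -1.08 (0.116) and Ldhb at -1.02 (0.144). Ldhb also did not pass after centring each array (-0.43, 0.353) or with trend and robust variances (-0.89, 0.0844). The cause of these changes was not tested. The difference of Pklr between kinds of arrays, -0.07, was 0.12 without mouse 3 and lay between -0.285 and 0.12 when a mouse was left out.

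The number of genes past the threshold, 1283, was 2873 after centring, 6507 after quantile normalisation, 2152 with arrays scaled to 1 spread and 2050 with single arrays and a random block. It was 677 with the replicate block, 564 with it over genes with 6 averages, 773 with it and mouse 2 shifted, and 7390 with the block on kidney over liver. Kidney arrays alone gave 455 and liver arrays alone 831, and leaving out a mouse or an average gave 467 to 2713. Centring moved the share of calls that were higher in kidney, with 1749 higher in kidney and 1124 in liver against 495 and 788, and it moved the median of all genes from -0.48 to -0.01. In the sugar metabolism lists, genes higher in kidney numbered 28 after centring, 29 without mouse 2 and 4 with the replicate block against 10, and genes higher in liver 6, 15 and 4 in the same order against 10. The number of arrays (16, of 3 mice) limits the precision, and signal over background could not be set because raw intensities were not used.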

Other observations

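Among the lists of other cell types, macrophage and leukocyte markers were higher in liver for 3 of 5 genes tested (median -1.13), and collecting duct markers were higher in kidney for 3 and in liver for 1 of 6 (median 1.71). Of 5 loop of Henle and distal tubule markers, 2 were higher in kidney and 1 in liver. Limma called 0 of 7 muscle markers (3 at an unadjusted p under 0.05) and 0 of 3 endothelial markers (0 at an unadjusted p under 0.05).

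On the 6 arrays of mouse 2, Ldhb was the gene of the 4 whose sign turned with centring, while Pygl stayed between -1.50 and -0.81 and Pklr between -0.74 and -0.25, and Pgk1 lay between 2.60 and 2.92. The opposite signs of Ldhb (-0.89) and Ldha (0.61), a pair whose textbook order between kidney and liver is the reverse, held in the averages of all 3 mice. Ldha did not pass the threshold (adjusted p = 0.126 in limma), was at 0.33 without mouse 2 and had averages of 0.05 and 0.14 in mouse 3, and the clone of the Ldhb probe was not checked.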
